A study of Mus musculus with 8 samples.

Results

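The 10 chemokine genes described here are Ccl2, Ccl7, Ccl20, Cxcl1, Cxcl2, Cxcl10, Ccl19, Cxcl12, Cxcl14 and Cx3cl1. They were chosen by name, and all 10 were found among the 55488 genes of each library's table. The study profiled dorsal skin of 3-month-old mice by bulk RNA-seq, with 4 libraries from mice with a knockout of Tph1 and 4 from wild-type mice. Tph1 encodes the tryptophan hydroxylase that starts serotonin synthesis outside the brain. The labels give the genotypes as TPH1 knockout and WT. They name no allele, strain, sex, litter or batch. Since nothing in them ties a library to a mouse of its own, the p-values reflect variation from library to library, which may be technical. None of the 10 genes lies on chromosome 7, which carries Tph1.

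Chemokines are small secreted proteins that guide the migration of leukocytes through G-protein-coupled receptors. One set is switched on in keratinocytes, fibroblasts, endothelium and macrophages by injury, cytokines or microbes, often through the transcription factor NF-κB, and its mRNAs are short-lived. The other set is made continuously in healthy tissue and positions resident cells. Ccl2, Ccl7, Ccl20, Cxcl1, Cxcl2 and Cxcl10 are treated here as stress-induced, and Ccl19, Cxcl12, Cxcl14 and Cx3cl1 as constitutive. Cx3cl1 can be counted in either class, since cytokines also raise it in endothelium.

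The promoters of the induced genes are shown first, since the classes differed in the letters found there. RefSeq promoter windows on GRCm38.p6, from 250 bases before to 50 bases after the transcript start, were matched for 8 of the 10 genes, all but Ccl2 and Ccl7. A κB motif, GGGNNNTTCC or its reverse complement GGAANNNCCC, was present in 4 of 4 induced genes and 0 of 4 constitutive genes with a window, and in 5.56% of 32851 promoter windows. Cxcl1 and Cxcl2 both carried GGGAATTTCC, a match on both strands in overlapping positions, with a further κB match before it in Cxcl1 and after it in Cxcl2. An AP-1 motif, TGANTCA, was found in Cxcl10 alone among the 8 and in 7.81% of all windows. An interferon response motif, GAAANNGAAA, was found in Cxcl10, Ccl19 and Cxcl14 and in 3.44% of all windows. The strict TATA motif TATAAA was found in Cx3cl1 alone among the 8, at bases -6 to -1 directly before the start, and in 13.6% of all windows. Cxcl1 and Cxcl2 hold CATAAA before their starts, which these strict letters do not count. These matches describe letters only and do not show binding. The sequences below run 5′ to 3′ up to the base before the start, in lower case, with matches to any of the 4 motifs in capitals. The whole 250 bases are given for Cxcl10, which held 3 of the 4 motifs, and the last 120 bases for the other induced genes and, for contrast, for Cxcl12.
Cxcl1, chr5:90891125-90891244, plus strand: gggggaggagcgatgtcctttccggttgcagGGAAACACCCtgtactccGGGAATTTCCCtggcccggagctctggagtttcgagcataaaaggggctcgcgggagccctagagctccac
Cxcl2, chr5:90903779-90903898, plus strand: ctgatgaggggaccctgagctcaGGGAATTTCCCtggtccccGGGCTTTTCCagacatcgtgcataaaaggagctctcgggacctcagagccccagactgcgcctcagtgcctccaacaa
Ccl20, chr1:83116646-83116765, plus strand: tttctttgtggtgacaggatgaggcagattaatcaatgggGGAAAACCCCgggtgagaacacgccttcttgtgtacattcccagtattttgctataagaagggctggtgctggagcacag
Cxcl10, chr5:92348890-92349139, minus strand: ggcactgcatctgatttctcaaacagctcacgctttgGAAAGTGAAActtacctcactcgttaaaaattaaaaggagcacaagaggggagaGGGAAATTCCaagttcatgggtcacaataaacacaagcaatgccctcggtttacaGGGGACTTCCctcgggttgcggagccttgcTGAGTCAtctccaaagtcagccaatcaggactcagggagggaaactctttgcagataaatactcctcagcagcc
Cxcl12, chr6:117168415-117168534, plus strand: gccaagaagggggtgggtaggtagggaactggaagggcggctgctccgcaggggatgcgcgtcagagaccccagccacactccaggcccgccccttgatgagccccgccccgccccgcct

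Per transcript length, Cxcl14 was the most abundant of the 10 genes in both genotypes, and Cxcl12 was next. On the TPM scale deposited by the authors (transcript abundance corrected for gene length), Cxcl14 averaged 166 ± 22.7 TPM in knockout skin and 295 ± 84.0 TPM in wild-type skin (SD, n = 4 each). Cxcl12 averaged 70.8 ± 29.2 TPM in knockout skin and 64.1 ± 16.9 TPM in wild-type skin. Cxcl14 lay above Cxcl12 in each of the 8 libraries, and Cxcl12 lay above the other members in each of them. Below them, the order in knockout skin was Cx3cl1 at 7.28 ± 1.29 TPM, then Ccl7, Ccl19, Cxcl10, Ccl2, Ccl20, Cxcl1 and Cxcl2, the last at 0.108 ± 0.126 TPM. In knockout skin Ccl7, Ccl19, Cxcl10 and Ccl2, at means of 1.85 to 2.61 TPM, did not differ beyond their spread. In wild-type skin the order was Ccl7 at 15.3 ± 23.7 TPM, Ccl19 at 10.4 ± 5.13, Cx3cl1 at 10.3 ± 1.24, Cxcl1 at 8.79 ± 8.72, Ccl2 at 7.76 ± 9.30, Cxcl2 at 5.17 ± 8.30, Ccl20 at 2.40 ± 3.30 and Cxcl10 at 1.69 ± 0.813 TPM. These wild-type levels were not separated from their neighbours, since for Ccl7, Cxcl1, Ccl2, Cxcl2 and Ccl20 the SD was about as large as the mean or larger.

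**Figure D1:**
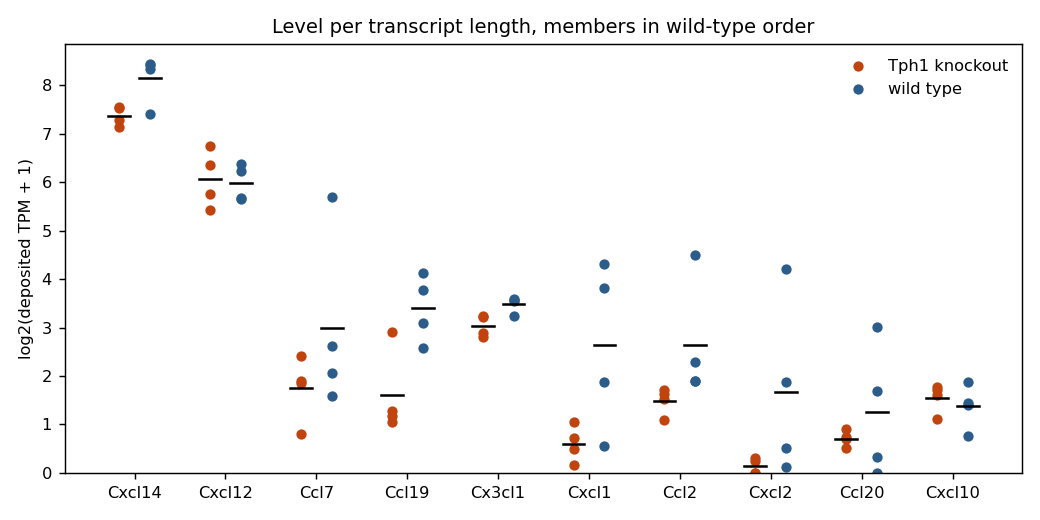
Level of each chemokine gene as log2 of the deposited TPM plus 1 (vertical axis), with Tph1 knockout libraries left (red) and wild-type libraries right (blue) and a bar at the mean of the 4 plotted log2 values. Cxcl14 and Cxcl12 stand above the other 8 genes in both genotypes, and the induced genes are widely spread in wild type.

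No member passed the test between genotypes. Of the 10 genes, 8 were expressed enough to test, and 0 of 8 were called by edgeR's quasi-likelihood test at an adjusted p under 0.05, where 0.651% of 16908 tested genes were called. At an unadjusted p under 0.05 there were 6 of 8, against 17.6% of all tested genes. DESeq2's Wald test called Cxcl1 and Ccl19, 2 of the 6 members for which it gave an adjusted p, where it called 5.95% of genes. Limma on log2(TPM + 1) called 0 of 8, where it called 0.172% of genes. At an unadjusted p under 0.05 limma had 5 of 8, and its share of all genes at that threshold was not counted. The 4 tested induced genes had a median log2 fold change of -2.11 (knockout over wild type) and the 4 constitutive genes a median of -0.53, where the median of all tested genes was 0.03. The induced median was -0.54 without wild type replicate 1 and 1.19 when a list of early-response and heat shock genes, described below, entered as a covariate, but that list's level was itself lower in every knockout library than in every wild-type library, so the covariate and the genotype cannot be told apart. The means of 5 of 6 induced genes and of 3 of 4 constitutive genes were lower in knockout skin. In bulk skin, fewer cells of a type and less RNA per cell cannot be told apart.

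The induced genes differed among wild-type libraries more than the constitutive genes did. In TMM-scaled CPM (reads of a gene relative to library size), the coefficient of variation of the 6 induced genes ran from 19.8% to 169% in knockout skin and from 53.6% to 158% in wild-type skin. For the 4 constitutive genes it ran from 9.88% to 83.6% in knockout skin, where Ccl19 was the highest, and from 8.995% to 40.3% in wild-type skin. Wild type replicate 1 had the highest level of 5 of 6 induced genes over all 8 libraries, and wild type replicate 3 had the highest of the sixth, Ccl20. Summed induced CPM in wild type replicate 2 was 4.71, within the knockout range of 4.00 to 5.83. The other wild-type libraries held 60.2, 19.5 and 8.37. By gene, Ccl7, Cxcl1 and Cxcl2 of wild type replicate 2 lay within the knockout range. Its Ccl2, at 2.09 CPM, lay above every knockout library, and its Ccl20 at 0 and Cxcl10 at 0.533 CPM lay below every one. Among constitutive genes it was the highest of the 8 libraries for Cxcl14 and Cx3cl1 and the lowest for Cxcl12. Tph1 itself had 0 counts in each knockout library and 18, 0, 27 and 11 counts in wild-type replicates 1 to 4, so wild type replicate 2 had none.

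**Figure D2:**
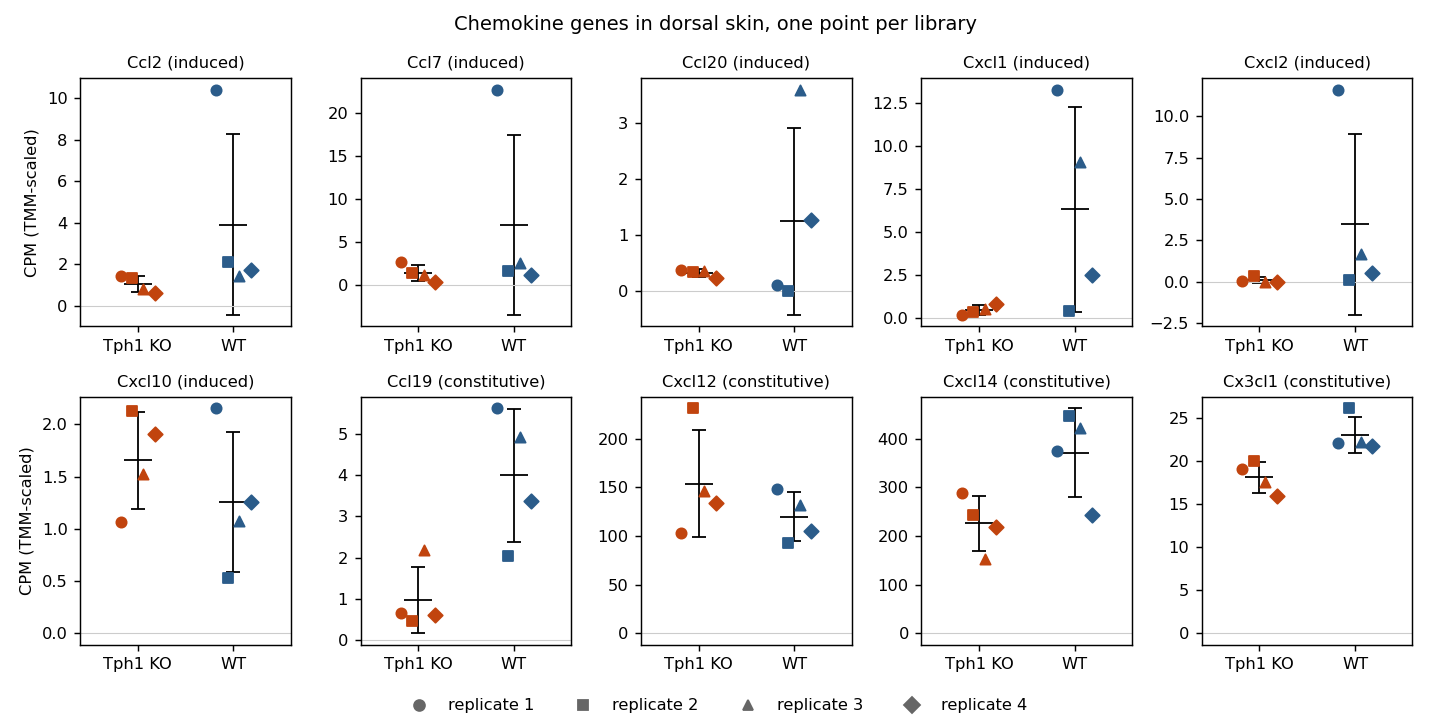
CPM of each chemokine gene in each library (vertical axes from below 0 to the highest library, each panel on its own scale), Tph1 knockout left and wild type right, with the mean and SD of 4 libraries in black. The wild-type means of Ccl2, Ccl7 and Cxcl2 rest on replicate 1, while the Cx3cl1 groups do not overlap and each is narrow.

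Ccl2 and Ccl7, monocyte chemoattractants that signal through Ccr2, lie 8258 bases apart on chromosome 11 and shared 1 high library. Ccl2 (ENSMUSG00000035385, chromosome 11 from 82035571 to 82037453 in GRCm38, plus strand) had 1.43, 1.33, 0.828 and 0.637 CPM in knockout skin, against 10.4, 2.09, 1.44 and 1.71 CPM in wild-type skin. The groups did not overlap, but knockout replicate 1 and wild type replicate 3 were separated by only 31 against 32 counts, and wild type replicate 1 held 66.5% of the wild-type CPM. Over all tested genes 5.66% had all 4 knockout libraries below all 4 wild-type libraries. The log2 fold change was -1.89 ± 0.67 (SE, edgeR adjusted p = 0.204) and -0.72 without wild type replicate 1. Ccl7 (ENSMUSG00000035373, 82045712 to 82047525 on the same strand) had 2.68, 1.37, 1.13 and 0.410 CPM in knockout skin, against 22.7, 1.599, 2.61 and 1.17 CPM in wild-type skin. The groups overlapped, and 80.8% of the wild-type CPM came from wild type replicate 1. Its log2 fold change was -2.33 ± 0.97 (SE, edgeR adjusted p = 0.257) and -0.36 without that library.

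Cxcl1 and Cxcl2, neutrophil attractants that signal through Cxcr2, lie 10755 bases apart on chromosome 5 and were high in wild type replicates 1 and 3. Cxcl1 (ENSMUSG00000029380, chromosome 5 from 90891241 to 90893115, plus strand) had 0.185, 0.333, 0.523 and 0.819 CPM in knockout skin, against 13.3, 0.3998, 9.08 and 2.48 CPM in wild-type skin. Wild type replicate 2 lay among the knockout libraries, and the other wild-type libraries lay above all of them. Cxcl1 had the largest log2 fold change of the tested members by size, at -3.75 ± 0.93 (SE, edgeR adjusted p = 0.104). It was -4.16 without wild type replicate 2 (adjusted p = 0.0360, where 0.509% of genes were called) and -3.08 without wild type replicate 1 (adjusted p = 0.195). Leaving out wild type replicate 2, the library that overlapped, separates the groups by construction, so the smaller p adds no support. Cxcl2 (ENSMUSG00000058427, chromosome 5 from 90903871 to 90905938, plus strand) was above the filter's minimum in too few libraries to pass. Its counts were 1, 8, 0 and 0 in knockout skin and 307, 2, 37 and 11 in wild-type skin. In CPM these were 0.0463, 0.333, 0 and 0 in knockout skin, against 11.6, 0.0889, 1.66 and 0.495 in wild-type skin. A count of 0 allows up to 3 counts, or 0.131 and 0.137 CPM in knockout replicates 3 and 4, which covers counting error only. The groups overlapped, and an exact permutation test of the CPM means gave p = 0.0571 (two-sided, n = 4 each), where the smallest p that 4 against 4 libraries allow is 0.0286. A stretch of 550 bases of Cxcl2 is 90.7% identical to Cxcl3, which held 5 counts in wild type replicate 1 and 0 in the others, so few reads could have been divided between these genes.

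Ccl20, which attracts Ccr6-bearing lymphocytes and Langerhans cell precursors, had few counts outside wild type replicates 3 and 4. Ccl20 (ENSMUSG00000026166, chromosome 1 from 83116766 to 83119167, plus strand) had 8, 8, 8 and 5 counts in knockout skin and 3, 0, 80 and 28 counts in wild-type skin. In CPM it was 0.370, 0.333, 0.348 and 0.228 in knockout skin, against 0.113, 0, 3.59 and 1.26 in wild-type skin, where the library at 0 allows up to 0.133 CPM. The knockout libraries lay between the wild-type libraries, and Ccl20 did not pass the filter (exact permutation test of CPM, two-sided p = 0.429, n = 4 each). Cxcl10, an interferon-induced attractant of T cells through Cxcr3, was the induced gene with a higher mean in knockout skin. Cxcl10 (ENSMUSG00000034855, chromosome 5 from 92346638 to 92348889, minus strand) had 1.06, 2.12, 1.52 and 1.91 CPM in knockout skin, against 2.16, 0.533, 1.08 and 1.26 CPM in wild-type skin. The groups overlapped and the log2 fold change was 0.39 ± 0.44 (SE, edgeR adjusted p = 0.661). Cxcl10 lies within Art3 on the opposite strand, and 133 of its 2252 exon bases, 5.91%, are also Art3 exon. The kit does not mark strand, and Art3 averaged 99.4 ± 11.01 CPM in knockout skin and 69.1 ± 19.6 CPM in wild-type skin (SD, n = 4 each), so the division of reads between them is uncertain.

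Of the constitutive genes, Ccl19, a ligand of Ccr7 that guides dendritic cells and T cells, had the largest difference in size. Ccl19 (ENSMUSG00000071005, chromosome 4 from 42754525 to 42756577, minus strand) had 0.648, 0.458, 2.18 and 0.592 CPM in knockout skin, against 5.63, 2.04, 4.94 and 3.38 CPM in wild-type skin. Knockout replicate 3 lay just above wild type replicate 2, and the other knockout libraries lay below every wild-type library. The log2 fold change was -2.04 ± 0.54 (SE, edgeR adjusted p = 0.120). It was -2.81 without knockout replicate 3 (edgeR adjusted p = 0.0286, where 0.991% of genes were called). It was -3.05 without wild type replicate 2 as well (edgeR adjusted p = 0.0220, where 0.985% were called). These are the libraries at which the groups overlapped, so leaving them out separates the groups by construction and the smaller p adds no support. Ccl19 counts were partly not whole, and 4 annotated copies on chromosome 4 match its transcript at 98.9% identity or more, so its counts depend on how reads were divided. The copies held 0 to 9 counts per knockout library and 2 to 26 counts per wild-type library. Summed with them, Ccl19 averaged 1.18 ± 0.746 CPM in knockout skin and 4.50 ± 1.94 CPM in wild-type skin (SD, n = 4 each).

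Cxcl14, a chemokine made by keratinocytes in healthy skin whose receptor is not settled, averaged 226 ± 56.7 CPM in knockout skin and 372 ± 91.2 CPM in wild-type skin (SD, n = 4 each). Cxcl14 (ENSMUSG00000021508, chromosome 13 from 56288643 to 56296551, minus strand) had 289, 244, 153 and 218 CPM in knockout skin, against 375, 447, 422 and 243 CPM in wild-type skin. Wild type replicate 4 lay within the knockout range and the other wild-type libraries lay above it. The log2 fold change was -0.72 ± 0.24 (SE, edgeR adjusted p = 0.192), and it stayed between -0.88 and -0.57 when any 1 library was left out. Cx3cl1, fractalkine, is a membrane-anchored ligand of Cx3cr1 that is shed by Adam10 and Adam17. Cx3cl1 (ENSMUSG00000031778, chromosome 8 from 94772009 to 94782427, plus strand) had 19.0, 20.0, 17.5 and 15.9 CPM in knockout skin, against 22.1, 26.1, 22.2 and 21.7 CPM in wild-type skin. The groups did not overlap in CPM, as in 5.66% of tested genes, while in TPM knockout replicate 3 at 8.50 lay above wild type replicate 4 at 8.42. Its fitted difference was -0.35 ± 0.13 on the log2 scale (SE, edgeR adjusted p = 0.210) and ran from -0.40 to -0.29 when any 1 library was left out. Cxcl12, made by dermal fibroblasts and other stromal cells and known for retaining Cxcr4-bearing cells, had a higher mean in knockout skin. Cxcl12 (ENSMUSG00000061353, chromosome 6 from 117168535 to 117181367, plus strand) had 103, 231, 146 and 134 CPM in knockout skin, against 149, 93.1, 132 and 106 CPM in wild-type skin. The groups overlapped, with knockout replicate 2 the highest of all 8 libraries (log2 fold change 0.36 ± 0.25 SE, edgeR adjusted p = 0.470).

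**Figure D3:**
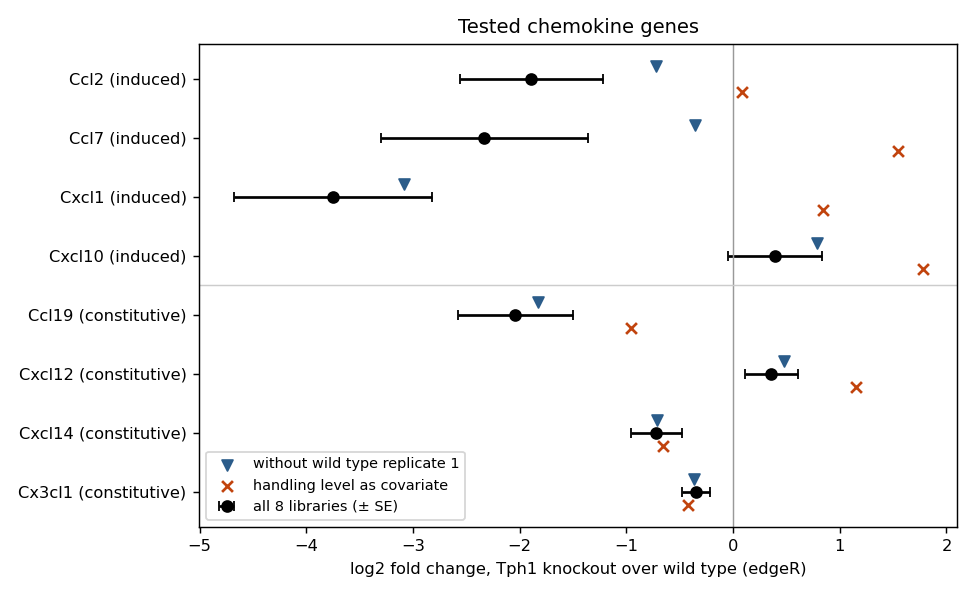
Log2 fold change of the 8 tested chemokine genes, Tph1 knockout over wild type (horizontal axis), with all 8 libraries and its SE (black circles), without wild type replicate 1 (blue triangles) and with the handling level as a covariate (red crosses). Ccl2 and Ccl7 move to -0.72 and -0.36 without that library, and Ccl2, Ccl7 and Cxcl1 lie above 0 with the covariate, with SEs of 0.97 to 1.39, while Cxcl14 and Cx3cl1 stay negative.

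The libraries high in induced chemokines were also high in a list of 28 immediate early and heat shock genes. It is called the handling list here, since such genes can respond within minutes to stress or dissection. The labels record nothing of the handling, and what raised these genes was not tested. The list had mean levels of 6.03, 6.39, 5.94 and 5.77 in knockout skin and 7.84, 6.52, 7.72 and 7.08 in wild-type skin, as log2(CPM + 1). Wild type replicates 1 and 3 were the highest of the 8 libraries, wild type replicate 2 was the lowest wild-type library, and the genotypes did not overlap. Of the 28 genes, 26 had negative log2 fold changes and 2 positive, the heat shock genes Hsph1 (0.04) and Bag3 (0.18). There were 23 at an unadjusted p under 0.05 (17.6% of all tested genes), and 9 had all knockout libraries below all wild-type libraries (5.66% of all). By edgeR 3 fell (0.651% of all genes were called), by DESeq2 15 (5.95% of all) and by limma 1 (0.172% of all). The 3 were Arc (-3.90 ± 0.67), Csrnp1 (-2.40 ± 0.41) and Nr4a1 (-2.18 ± 0.33, log2 fold change and SE). The summed level ran from 3447 to 6202 CPM in knockout skin and from 4672 to 18180 CPM in wild-type skin. With this level as a covariate, Cxcl1, Ccl2 and Ccl7 had log2 fold changes of 0.84 ± 1.39, 0.08 ± 0.97 and 1.55 ± 1.33 (SE), with the signs not established at these errors. Ccl19 was at -0.96, Cxcl14 at -0.66 and Cx3cl1 at -0.42 in the same fit, which called 0.00591% of genes. Cxcl10 was there at 1.78 ± 0.75 and Cxcl12 at 1.15 ± 0.34 (SE, edgeR adjusted p = 0.70 and 0.68). Of 7 markers of differentiated, suprabasal keratinocytes, 7 had negative log2 fold changes at an unadjusted p under 0.05 (17.6% of all tested genes) and 4 had groups without overlap (5.66% of all). EdgeR called Lor and Krtdap lower (0.651% of all genes were called), DESeq2 called 6 lower (5.95% of all) and limma called 0 (0.172% of all). Their summed levels were 3920 to 6452 CPM in knockout skin and 9766 to 12540 CPM in wild-type skin. Of 8 macrophage markers 0 were called, with 4 at an unadjusted p under 0.05 (17.6% of all tested genes) and 0 called by DESeq2 or limma. Their summed level was 119 to 306 CPM in knockout skin and 197 to 312 CPM in wild-type skin. The neutrophil markers were near 0, with Ly6g at 0 in all 8 libraries and summed levels of 0.546 to 2.53 CPM in knockout skin and 1.64 to 4.00 CPM in wild-type skin. Skeletal muscle markers were lowest in the libraries highest in Cxcl1: the mean level of 7 genes, as log2(CPM + 1), was 13.1, 12.3, 12.2 and 13.1 in knockout skin and 11.6, 12.8, 10.1 and 12.6 in wild-type skin. All 7 had positive log2 fold changes, with 1 at an unadjusted p under 0.05, near the 17.6% of all tested genes. EdgeR and limma called 0, and DESeq2 called Myh1 higher (5.95% of all genes were called). Their summed level ran from 44130 to 80300 CPM in knockout skin and from 10720 to 73230 CPM in wild-type skin. The 5 hair keratin markers summed to 1.02 to 1253 CPM in knockout skin and 0.832 to 129 CPM in wild-type skin. Of these, 4 were tested, with 0 called by edgeR, DESeq2 or limma and 1 at an unadjusted p under 0.05 (17.6% of all tested genes). The part of these cell types in the chemokine values was not tested.

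**Figure D4:**
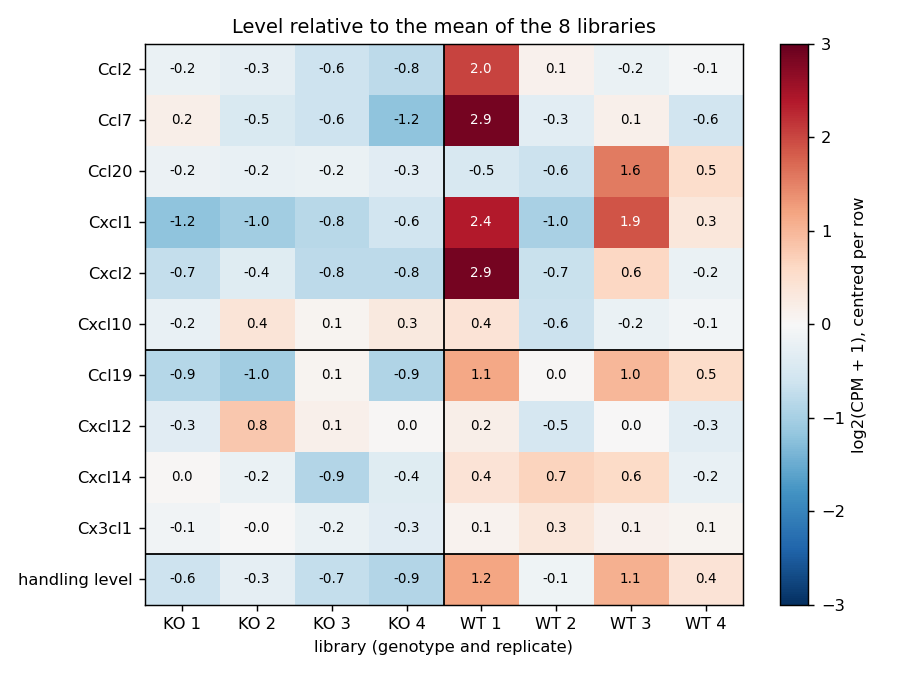
Each cell is log2(CPM + 1) of a gene (rows, induced above constitutive) in a library (columns, Tph1 knockout left, wild type right) minus the gene's mean over 8 libraries, and the bottom row is the mean level of the handling list treated the same way. Wild type replicate 1, and for Cxcl1 and Ccl20 replicate 3, stand out among the induced genes, and the same 2 libraries are highest in the handling row.

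Genes whose profile was most like a member's were sought among 13736 other tested genes with a mean of at least 1 CPM, by the root mean square difference of log2(CPM + 1) centred per gene over the 8 libraries. The nearest to Cxcl1 were Tnfaip3, an NF-κB feedback inhibitor, at 0.348 and Csrnp1, an immediate early gene, at 0.430, where the median over all compared genes was 1.34. Ccl2 was nearest to Trem2, a receptor gene of macrophages, at 0.231 and Ifi213 at 0.260 (median 0.848). Ccl7 was nearest to Has1, a hyaluronan synthase gene, at 0.366 and Tnfaip6, which encodes a hyaluronan-binding protein, at 0.399 (median 1.19 over all compared genes). Cxcl10 was nearest to Fubp1 at 0.117 and Med13 at 0.122, and Cxcl12 to Fam126b at 0.115 and Ebf4 at 0.122. Ccl19 was nearest to Ovol1, a transcription factor gene of epidermal differentiation, at 0.134 and Kctd11 at 0.157 (median 0.850). The nearest to Cxcl14 were Rpl6l at 0.152 and S100a6 at 0.173, and to Cx3cl1 they were Nucb1 at 0.0445 and Psme1 at 0.0557. All of these differences are between profiles of the same 8 libraries and carry no test. Between the members themselves, Ccl7 lay nearer to Cxcl2 (0.435) and Ccl2 (0.460) than to Cxcl14 or Cxcl12, and Cxcl10 lay nearest to Cxcl12 (0.234). However, Ccl7 lay farther from the induced gene Ccl20 than from any constitutive member. The induced genes Cxcl1 and Cxcl10 were also no nearer to Ccl7 than the constitutive gene Ccl19 was. The differences from Ccl7 therefore did not follow the classes.

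The signalling receptors of these chemokines averaged under 10 CPM in both genotypes, while some atypical receptors, which bind chemokines without signalling in the usual way, were higher, and no receptor was called. Of 22 listed receptor genes 15 were tested and 0 passed, with 2 at an unadjusted p under 0.05, where 17.6% of all tested genes were, and 0 called by DESeq2 or limma, and the median log2 fold change was -0.09. Ccr2, the receptor of Ccl2 and Ccl7, averaged 6.003 ± 2.78 CPM in knockout skin and 5.52 ± 2.60 CPM in wild-type skin (SD, n = 4 each). Cxcr4, the receptor of Cxcl12, averaged 4.91 ± 2.37 CPM in knockout skin and 3.26 ± 0.639 in wild-type skin, and Ackr3, which scavenges Cxcl12, averaged 43.3 ± 5.34 CPM in knockout skin and 50.5 ± 11.7 in wild-type skin. Ackr4, an atypical receptor of Ccl19 named after its values were seen, averaged 99.1 ± 15.4 CPM in knockout skin and 97.9 ± 21.8 in wild-type skin. Cx3cr1 averaged 1.44 ± 0.412 CPM in knockout skin and 1.53 ± 0.279 in wild-type skin, and Cxcr3 0.366 ± 0.414 in knockout skin and 0.583 ± 0.309 in wild-type skin. Ccr6, Ccr7 and Cxcr2 were too low for the filter, with at most 1.05, 0.174 and 0.348 CPM in a knockout library and 0.718, 0.870 and 0.529 CPM in a wild-type library. Ccr10, the receptor of the skin chemokine Ccl27a, had a log2 fold change of 1.78 ± 0.60 (SE), Ccrl2, an atypical receptor, -0.87 ± 0.31 and Ackr1, the Duffy receptor of venules, -0.87 ± 0.42, with edgeR adjusted p = 0.192, 0.210 and 0.311.

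The other ligands and the controls of the induced genes had mostly negative log2 fold changes and none was called by edgeR or limma. Of 28 other chemokine ligands 16 were tested, 11 negative and 5 positive, with a median of -0.42 and 6 at an unadjusted p under 0.05, where 17.6% of all tested genes were. The 4 with the smallest p were Ccl6 (-0.70 ± 0.19 SE), the membrane-anchored ligand Cxcl16 (-0.50 ± 0.17), the T cell attractant Ccl5 (-1.73 ± 0.60) and Ccl9 (-0.73 ± 0.26), with edgeR adjusted p from 0.133 to 0.201. DESeq2, which called 5.95% of all genes, called Ccl6. Of 15 genes of NF-κB control, 13 were negative, with a median of -0.34 and 8 at an unadjusted p under 0.05 (17.6% of all tested genes), and DESeq2 called 5 of them lower (5.95% of all genes were called). Tnfaip3 had 17.9, 24.6, 22.9 and 17.9 CPM in knockout skin, against 149, 22.9, 206 and 61.1 CPM in wild-type skin (-2.40 ± 0.56 SE, edgeR adjusted p = 0.0930). As for Cxcl1, wild type replicate 2 lay among the knockout libraries and wild type replicates 1 and 3 were the highest, but here replicate 3 was above replicate 1. Nfkbia, the main NF-κB inhibitor and a target of it, had 104, 172, 129 and 161 CPM in knockout skin, against 293, 174, 584 and 302 CPM in wild-type skin (-1.26 ± 0.34, edgeR adjusted p = 0.123). The subunit genes Rela and Relb were at -0.52 ± 0.13 and -0.70 ± 0.17 (SE, edgeR adjusted p = 0.114 and 0.0980). Like Nfkbia, they had all knockout libraries below all wild-type libraries, as 5.66% of tested genes did.

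Of 17 genes of inducing cytokines and their receptors 9 were tested, 8 of them negative, with a median of -0.50 and 5 at an unadjusted p under 0.05 (17.6% of all tested genes), and DESeq2 called Tnfrsf1a alone (5.95% of all genes). Il1b, a strong inducer of chemokines, averaged 0.493 ± 0.405 CPM in knockout skin and 2.20 ± 2.87 in wild-type skin, where replicate 1 held 6.46 CPM, and Il1a averaged 2.42 ± 0.703 CPM in knockout skin and 4.97 ± 2.42 in wild-type skin. The receptor genes Tnfrsf1a and Ifngr1 were at -0.50 ± 0.15 and -0.52 ± 0.18 (SE, edgeR adjusted p = 0.149 and 0.192). Among 6 genes of mRNA decay, Zfp36, which destabilises chemokine mRNAs, had 170, 334, 171 and 150 CPM in knockout skin, against 899, 240, 1593 and 771 CPM in wild-type skin (-2.09 ± 0.50 SE, edgeR adjusted p = 0.0996). Zc3h12a, which encodes the RNase Regnase, was at -1.18 ± 0.30 (SE), while Zfp36l2 and Elavl1 were at -0.36 and -0.19. The decay list had a median of -0.27, with 2 of 6 genes at an unadjusted p under 0.05 (17.6% of all) and 2 called by DESeq2 (5.95% of all). Of 12 interferon targets 11 were negative, with a median of -0.26, and 2 were at an unadjusted p under 0.05, near the 17.6% of all tested genes. Irf7 was at -1.10 ± 0.32 and Oasl2 at -0.97 ± 0.32 (SE), without overlap between the groups (5.66% of all tested genes), while Ifit3 and Isg15 were at -0.86 and -1.01, and DESeq2 called Irf7 alone (5.95% of all genes). Of 6 genes that shed, trim or display chemokines all were negative, with a median of -0.30 and 2 at an unadjusted p under 0.05 (17.6% of all tested genes). DESeq2 called Sdc1 and Sdc4, cell surface proteoglycan genes, lower (5.95% of all genes were called). They were at -0.59 ± 0.18 and -0.65 ± 0.17 (SE, edgeR adjusted p = 0.151 and 0.112), without overlap between the groups, as in 5.66% of tested genes. Dpp4, whose protease trims Cxcl10 and Cxcl12, and the sheddase gene Adam17 were at -0.41 and -0.19.

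**Figure D5:**
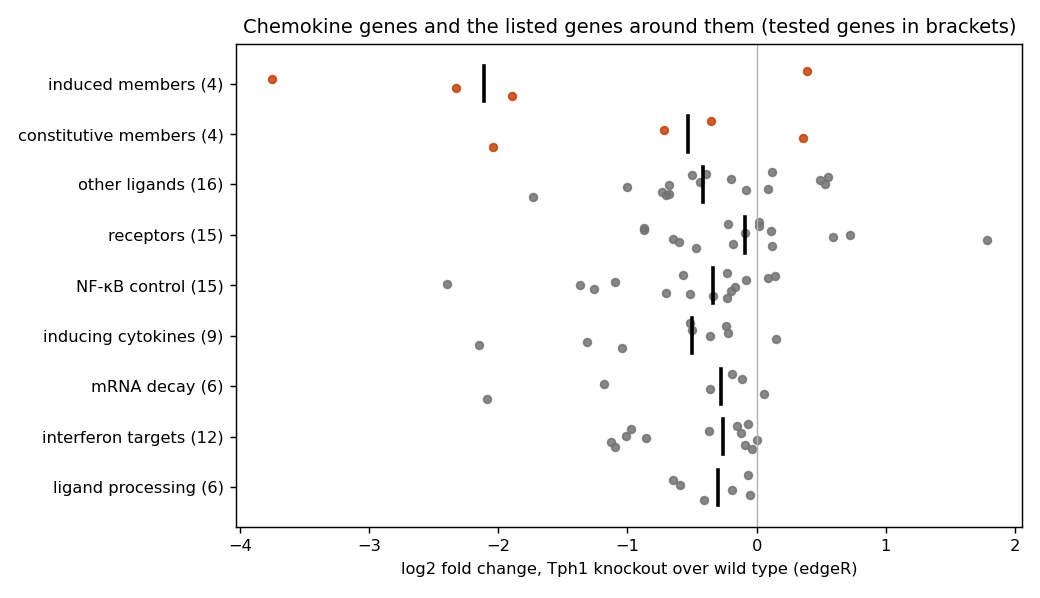
Log2 fold change of every tested gene, Tph1 knockout over wild type (horizontal axis), by list (rows, number of tested genes in brackets), with a black bar at the list's median and the chemokine members in red. The medians run from -2.11 for the induced members to -0.09 for the receptors. In these lists 0 genes were called by edgeR or limma.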

How the data were processed

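Dorsal skin RNA-seq of 4 Tph1 knockout and 4 wild-type libraries was analysed from the deposited tables. Tools listed in the submitters' processing notes are STAR 2.7.6a, RSEM 1.31 and DESeq2, on GRCm38; the labels point to Ensembl release 101. The library kit was NEBNext Ultra RNA, per the labels' protocols, which does not mark strand. The deposited expected counts are RSEM's estimated reads per gene, not normalized, and summed to 20531601 to 24678638 per library. Between 10.7% and 11.5% of genes held a value that was not whole. The deposited TPM values, per the file headers, correct for gene length and depth and were used for levels between genes and in an alternative. Effective gene lengths entered another alternative. The deposited normalized signal matrix, made with DESeq2 per the labels, gave symbols only; it lists 8 of the 10 members, and the other two were found by identifier.

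Expected counts were rounded, filtered by filterByExpr by genotype and TMM-scaled. The filter asks for about 10 counts or more in as many libraries as the smaller group holds, and a total of at least 15. Genes were tested with edgeR 4.0.16's robust quasi-likelihood test in R 4.3.3 with genotype as the only term. P-values were adjusted by Benjamini-Hochberg over 16908 genes. The script was tested on simulated data. Fold changes are knockout over wild type, and each SE was derived from the F statistic. Genes failing the filter were compared by exact permutation over 70 assignments (SciPy 1.17.1). Other tests were DESeq2 1.42.0 and limma 3.58.1. Similar copies were sought with BLAST 2.17.0 (at least 90% identity over at least 200 bases) in GENCODE M21 transcripts, the source of coordinates. Copies were sought for the members only, not for other genes such as Ccl21a and Ccl27a. Named list genes are those called, up to 4 with the smallest p, and the members' receptors. Replicate numbers follow record order and pair no libraries. The members, classes and lists were chosen with earlier results of these data known, so nothing is adjusted over the list alone, and no set test was run. A receptor gene is left out of its list and not reported here.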

Additional observations from a re-analysis of the deposited data

Results flagged for a closer look

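Single libraries stood far from the other 3 of their group in 14 of 90 groups searched (45 named genes, 2 genotypes). The gap to the nearest other library exceeded Dixon's 95% critical share of the group's range. Chance alone gives this in about 1 of 20 groups only where values are independent and normally distributed. CPM values near the floor need not be normal, and all groups come from the same libraries. Whether 14 groups exceed chance therefore cannot be read from that rate.

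Among the chemokine genes, wild type replicate 1 was high for Ccl2 (10.4 CPM, others 1.44 to 2.09), Ccl7 (22.7 CPM, others 1.17 to 2.61) and Cxcl2 (11.6 CPM, others 0.0889 to 1.66). Knockout replicate 2 was high for Cxcl2 at 0.333 CPM, where the other knockout libraries held 0 to 0.0463. Knockout replicate 3 was high for Ccl19 at 2.18 CPM (others 0.458 to 0.648), and wild type replicate 2 was high for Cx3cl1 at 26.1 CPM (others 21.7 to 22.2).

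Among the listed genes around them, wild type replicate 1 was high for Ccr6 (0.718 CPM, others 0), Il1b (6.46, others 0.315 to 1.30), Isg15 (16.1), Oasl2 (35.7) and Adam17 (66.1). Knockout replicate 3 was high for Ccr6 at 1.05 CPM, knockout replicate 2 was high for Zfp36 at 334 CPM (others 150 to 171), and knockout replicate 4 was low for Oasl2 at 7.05 CPM (others 11.1 to 11.2).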

How the results depend on the processing

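Cxcl10, Cxcl12, Ccl19, Cxcl14 and Cx3cl1 kept their direction in all 16 alternatives, and Cxcl1 in 15 of 16. Ccl2 and Ccl7 kept theirs in 14 of 15, with DESeq2 not counted because it gave them no adjusted p. The exception was the handling covariate, whose level did not overlap between genotypes, where Ccl2, Ccl7 and Cxcl1 were at 0.08, 1.55 and 0.84 (0.990, 0.784 and 0.882 adjusted p) and the induced median at 1.19. The cause was not tested. Without 1 library, Ccl2 ran from -2.16 to -0.72, Ccl7 from -2.87 to -0.36, Cxcl1 from -4.18 to -3.08 and Ccl19 from -2.81 to -1.80. The induced median ran from -2.87 to -0.54 and the number of members called from 0 to 1. That median of -2.87, without knockout replicate 1, was over 5 tested genes, while -0.54 and the main median were over 4. Without wild type replicate 2 and knockout replicate 3 together 1 member was called, Ccl19 at -3.05 (adjusted p = 0.0220), where 0.985% of genes were called. The Ccl19 groups overlapped at those libraries, so leaving them out separates the groups by construction and that p adds no support. DESeq2 called 2, Cxcl1 at -3.78 (adjusted p = 0.000304) and Ccl19 at -2.06 (adjusted p = 0.00640), and gave no adjusted p for Ccl2 and Ccl7. On log2(TPM + 1) the induced median was -1.20, a scale that shrinks changes of low genes. With Cx3cl1 counted as induced, the constitutive median was -0.72, from 3 genes. Cxcl2 and Ccl20 were negative in all 9 alternatives, with exact p of 0.0571 to 0.114 and 0.286 to 0.857. Leaving out 1 library changed the number of genes called from 110 to between 8 and 170. No paired analysis was possible because the labels give no replicate numbers that pair libraries. Low counts limited the precision of Cxcl1, Cxcl2, Ccl20 and Cxcl10, the last with 12 to 57 counts per library. They also limited Ccl2, Ccl7 and Ccl19 in knockout skin, at 14 to 32, 9 to 58 and 11 to 50 counts per library.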

Other observations

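Other cells that make or receive chemokines had no marker called by edgeR or limma. For 6 blood endothelial markers the summed level was 135 to 294 CPM in knockout skin and 123 to 236 CPM in wild-type skin (median log2 fold change 0.09), and for 5 lymphatic markers it was 25.2 to 82.2 CPM in knockout skin and 26.2 to 66.6 CPM in wild-type skin. Ccl21a, the lymphatic partner of Ccl19 at Ccr7, averaged 28.3 ± 37.0 CPM in knockout skin and 26.6 ± 31.6 CPM in wild-type skin (SD, n = 4 each). For 6 Langerhans and dendritic cell genes the summed level was 307 to 900 CPM in knockout skin and 628 to 947 CPM in wild-type skin. All 6 had negative log2 fold changes (median -0.70), 2 of them at an edgeR unadjusted p under 0.05 (17.6% of all tested genes). DESeq2 called H2-Ab1 lower (5.95% of all genes were called). The 6 T and NK cell markers summed to 6.34 to 17.8 CPM in knockout skin and 11.2 to 22.3 CPM in wild-type skin, and the 6 mast cell markers to 20.6 to 73.2 CPM in knockout skin and 34.2 to 114 CPM in wild-type skin. The 7 fibroblast markers summed to 645 to 2005 CPM in knockout skin and 935 to 3776 CPM in wild-type skin. Of these, 0 were at an edgeR unadjusted p under 0.05 (17.6% of all tested genes), with a median log2 fold change of -0.40.

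Ccl27a, a keratinocyte chemokine of healthy skin, and Ccl21a, given above, were chosen after their values were seen, as were the called genes named from marker lists. Ccl27a averaged 98.8 ± 29.5 CPM in knockout skin and 134 ± 42.0 CPM in wild-type skin (SD, n = 4 each; log2 fold change -0.44 ± 0.27 SE, edgeR adjusted p = 0.421).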
